A study of Mus musculus with 2 samples.

Results

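The 9 genes described here belong to the complement system: the C1q chains *C1qa*, *C1qb* and *C1qc*, the components *C3* and *C4b*, the receptors *C3ar1*, *C5ar1* and *C5ar2*, and the C1q-binding protein *C1qbp*. They were picked by symbol from 13549 genes in the deposited count table, and all 9 were found. Their read counts in the libraries and the proportions of the C1q chains were in view when they were picked, so these values are given as a description, with no test.

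Complement is a set of proteins that tag and clear microbes, dying cells and cell debris. C1q is its pattern recognition molecule: an A, a B and a C chain, each with a collagen-like stalk and a globular head, fold into a trimer, and several trimers assemble into a bouquet. C1q bound to a surface activates the proteases C1r and C1s, which leads to cleavage of C4, C2 and C3. Fragments of C3 stay on the surface and are read by phagocyte integrins, while the released C3a and C5a fragments signal through G protein-coupled receptors. In nervous tissue microglia are the main source of C1q, and the protein binds apoptotic cells and synapses.

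Mouse retina at postnatal day 5 was the source of both groups, and every animal carried CD11c-Cre-gfp;Rosa-TDTom, a Cre-GFP fusion under the promoter of the integrin subunit CD11c and a TdTomato reporter that stays on once Cre has acted. The Cd11c-active group (GFP+TdTom+, 4041 cells) held GFP when sorted, which its label takes as current use of the promoter. The Cd11c-lineage group (GFP-TdTom+, 5441 cells) had TdTomato without GFP, so the promoter had been active at some earlier time. Both came from 8 retinas, with 4 female and 4 male, and each group was sequenced as 1 library, so no difference below has a replicate check. No wild-type or CD11c-negative group is part of the series, and the labels name no surface marker of microglia for the sort.

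The Cd11c-active library held 12943998 reads and the Cd11c-lineage library 13402625. Below, a pair of values joined by "and" gives Cd11c-active first and Cd11c-lineage second. Ratios are Cd11c-active over Cd11c-lineage on the log2 scale after TMM scaling, which placed every ratio 0.14 above that from library totals, and CPM, reads scaled to the library size, is on the same scale. Intervals on reads cover counting error only, since PCR copies of a molecule could not be told from separate molecules. The libraries differed by far more than counting error, so each gene is also set beside the 200 genes nearest to it in reads. Their SD below is a robust one, taken from percentiles so that outlying genes do not set it.

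All 14 microglial markers had reads in both libraries, with sums of 23484 and 22631 CPM. Of them 0 were past 2-fold, against 9.57% of all genes with at least 1000 reads, as each of them had. The one with the most reads, the receptor gene *Csf1r*, had 6405 and 6580 CPM. Marker sums of most other cell types differed between the libraries, often on few reads. Of all genes with at least 20 reads, 44.9% were past 2-fold in either direction and 21.3% had 0 reads in 1 library. Among the 200 genes nearest in reads, 167 had 0 reads in 1 library at *Ms4a7* and 94 at *Cd163*. At the endothelial *Cldn5* 0 did, and at *Plvap* 11. The 8 endothelial markers, of which *Pecam1* had the most reads over both libraries, summed to 646 and 73.7 CPM, with *Cldn5*, *Esam*, *Flt1*, *Tek* and *Plvap* at 0 reads in Cd11c-lineage. Of 7 pericyte markers, of which *Cspg4* had the most reads, 5 had 0 reads in Cd11c-lineage (*Pdgfrb*, *Rgs5*, *Cspg4*, *Kcnj8* and *Abcc9*) and 1 in Cd11c-active (*Notch3*), while *Anpep* had 15 and 125 reads. The pericyte sums were 64.0 and 11.1 CPM, the latter mostly from *Anpep*. The 5 border macrophage markers summed to 21.2 and 131 CPM, with *Lyve1*, *Cd163*, *F13a1* and *Ms4a7* at 0 reads in Cd11c-active and *Mrc1* present in both. The 10 retinal neuron markers, of which *Prox1* had the most reads, summed to 141 and 238 CPM. Of these, 5 were past 2-fold lower in Cd11c-active and 1, *Rbpms* (325 and 126 reads), higher. Over all genes with at least 20 reads the shares were 21.6% lower and 23.3% higher. Muller glia and astrocyte markers summed to 2434 and 2488 CPM over 5 genes, nearly all from *Glul*. The other members of the list differed in direction: *Rlbp1* had 94 and 0 reads, *Vim* 2069 and 1005, *Sox9* 43 and 18, and *Slc1a3* 73 and 642. The 4 monocyte and neutrophil markers summed to 2.83 and 17.0 CPM, with *Ccr2* at 0 in Cd11c-lineage and *S100a8*, *S100a9* and *Plac8* at 0 in Cd11c-active. Of 5 dendritic cell markers 1 was in the table, *Zbtb46*, which had 16.2 CPM in Cd11c-active and 0 reads in Cd11c-lineage. Of 5 erythroid markers 1 was in the table, *Hbb-bt*, with 0 reads and 2.21 CPM.

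All C1q chains were highly expressed in both libraries, and all 3 had more reads in Cd11c-active. *C1qb* (ENSMUSG00000036905) had 36002 and 31014 reads, or 2916 and 2207 CPM. *C1qa* (ENSMUSG00000036887) had 25021 and 18895 reads, or 2027 and 1345 CPM. *C1qc* (ENSMUSG00000036896) had 25574 and 14825 reads, or 2071 and 1055 CPM. By reads *C1qb* ranked 22 and 31 among all listed genes. *C1qa* ranked 39 and 56, and *C1qc* 38 and 78. Together the chains took 0.669% of all reads in the Cd11c-active library, with a 95% Wilson interval from 0.665% to 0.673%, and 0.483% in the Cd11c-lineage library, from 0.479% to 0.487%.

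**Figure D1:**
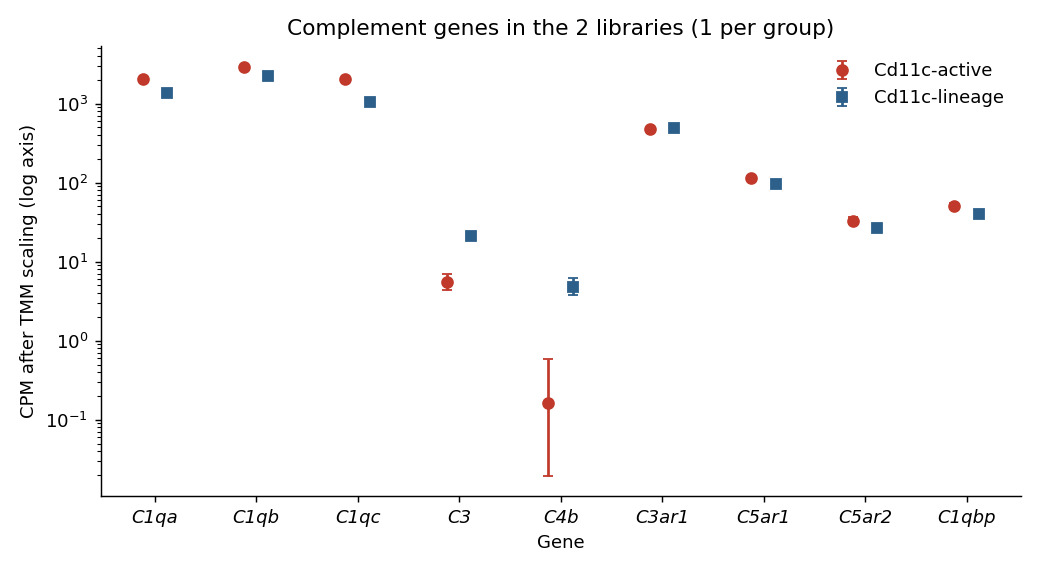
CPM of the 9 genes (log axis) in Cd11c-active (circles) and Cd11c-lineage (squares), 1 library each, with exact Poisson 95% intervals for counting error. The C1q chains lie at 1055 to 2916 CPM and above the other genes, the receptors lie near the same level in both libraries, and *C3* and *C4b* are low and lie lower in Cd11c-active.

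Among the chains, *C1qc* differed the most between the libraries. Its log2 ratio was 0.97 (95% counting interval 0.94 to 1.0), or 1.96-fold. The ratio of *C1qa* was 0.59 (0.56 to 0.62), or 1.51-fold, and that of *C1qb* was 0.40 (0.38 to 0.42), or 1.32-fold. The summed reads of the chains, 86597 and 64734, gave 0.61 (0.59 to 0.62). None of the chains passed 2-fold, which 2.25% of the 356 genes with at least 10000 reads did in either direction. In the authors' deposited table the log2 fold changes of *C1qa*, *C1qb* and *C1qc* are 0.46, 0.27 and 0.84, on the scale of library totals.

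Against genes of like abundance, *C1qc* stood near the upper end and *C1qb* did not. Among the 200 genes nearest to *C1qc* in reads, the SD of the log2 ratio was 0.32, the middle 95% ran from -0.45 to 0.80, and 4 genes had a higher ratio. For *C1qa* 16 of its 200 nearest genes had a higher ratio, and for *C1qb* 29 of 200, with the same upper limit of 0.80. These sets of nearest genes overlap for the chains, since few genes are as abundant. Of all 356 genes with at least 10000 reads, *C1qc* had the place 8 from the top by ratio, *C1qa* 26 and *C1qb* 60.

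**Figure D2:**
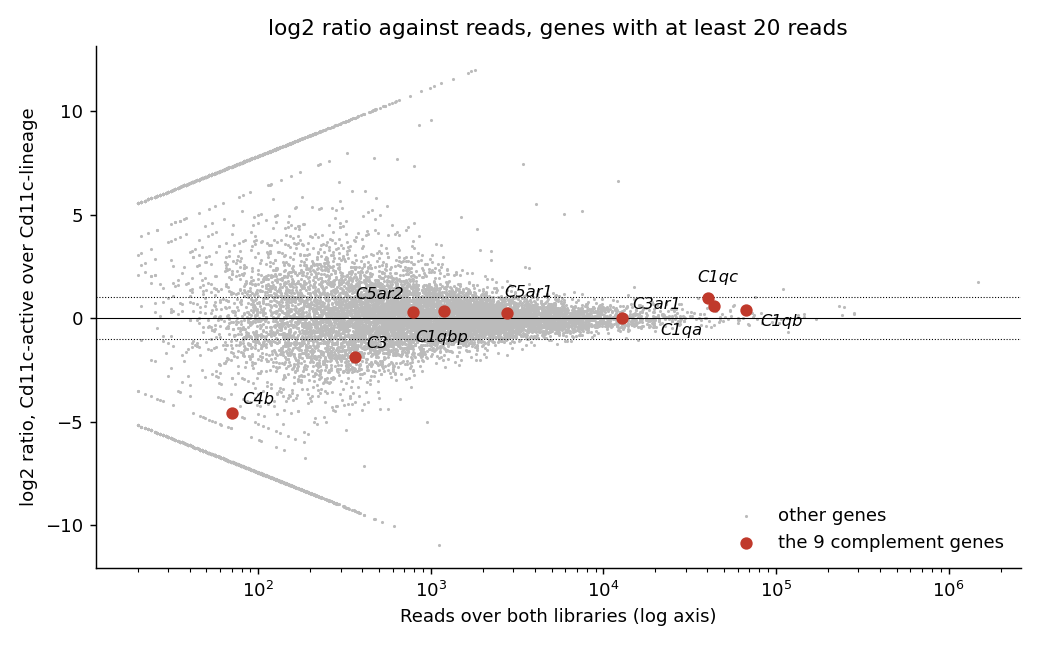
The log2 ratio of each gene with at least 20 reads (y axis) against its reads over both libraries (x axis, log scale), with the 9 complement genes in red and dotted lines at 2-fold. The spread of all genes narrows from left to right, the diagonal rows at the edges are genes with 0 reads in either library, and *C1qc* lies just under the upper dotted line at 0.97.

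Over genes in general, the ratio moved with transcript length. The C1q transcripts are short and rich in G and C: 1.04 kilobases and 59.5% for *C1qa*, 1.09 and 57.4% for *C1qb*, and 1.20 and 57.5% for *C1qc*. Short transcripts in general had higher ratios. Among genes with at least 10000 reads, the chains left out, the median log2 ratio was 0.37 (SD 0.32) in the 34 genes under 1.5 kilobases, 0.09 (SD 0.31) in 112 genes from 1.5 to 3 kilobases and -0.09 (SD 0.27) in 206 longer genes. Of the 34 short genes, 15 had a higher ratio than *C1qb*, 9 a higher one than *C1qa* and 3 a higher one than *C1qc*. The bins were chosen after the data were seen.

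Once a trend with length and GC content, fitted over 4612 genes with at least 1000 reads, was subtracted, the log2 ratio of *C1qc* was 0.57, that of *C1qa* 0.11 and that of *C1qb* -0.02. The summed chains were then at 0.17. The trend accounted for 0.48 of the ratio of *C1qa*, 0.42 of *C1qb* and 0.40 of *C1qc* by construction, and it stands for whatever differs between the libraries with length and GC content, of biological or technical origin. The endothelial signal given above was also higher in Cd11c-active, and its part in the C1q ratios was not tested. With the summed microglial markers as the library size, in place of TMM scaling, the ratios were 0.54 for *C1qa*, 0.35 for *C1qb* and 0.92 for *C1qc*.

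**Figure D3:**
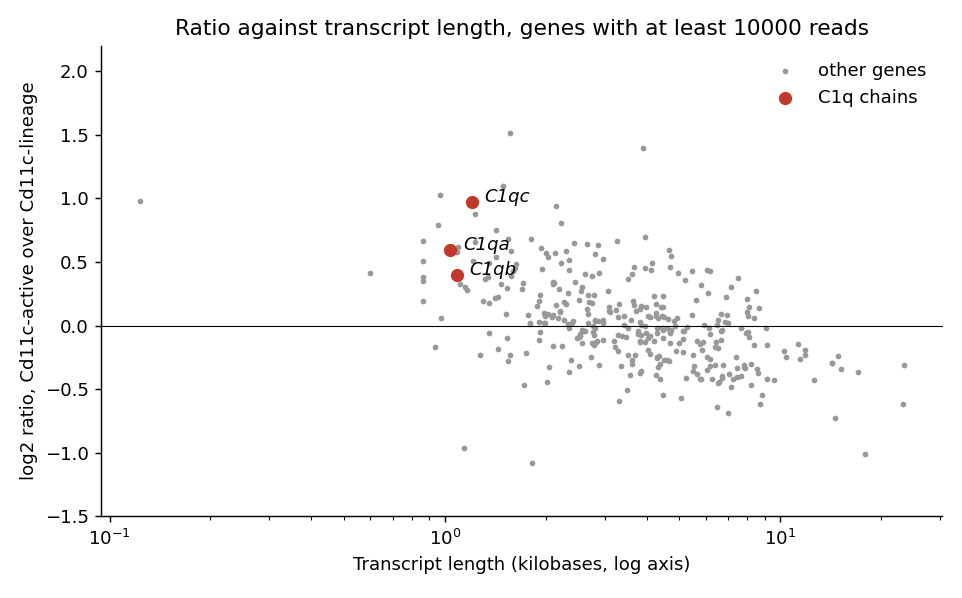
The log2 ratio (y axis) against transcript length in kilobases (x axis, log scale) for genes with at least 10000 reads, with the C1q chains in red; *Col4a1*, at 6.60, lies above the axis. Ratios fall from short to long transcripts, *C1qa* and *C1qb* lie within the cloud of other short transcripts, and *C1qc* lies near its upper edge.

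The proportions of the chains inside a library need no scaling between libraries. By reads, the order in Cd11c-active was *C1qb*, *C1qc*, *C1qa*, with 41.6%, 29.5% and 28.9% of the C1q reads. In Cd11c-lineage it was *C1qb*, *C1qa*, *C1qc*, with 47.9%, 29.2% and 22.9%. The Wilson 95% intervals for *C1qc* ran from 29.2% to 29.8% in Cd11c-active and from 22.6% to 23.2% in Cd11c-lineage. The share of *C1qc* was thus larger in Cd11c-active, that of *C1qb* smaller, and that of *C1qa* was nearly the same.

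Per kilobase of transcript, the order was *C1qb*, *C1qa*, *C1qc* in both libraries. The levels in Cd11c-active were 2680 CPM per kilobase for *C1qb*, 1949 for *C1qa* and 1722 for *C1qc*. In Cd11c-lineage they were 2029, 1293 and 877. *C1qc* was therefore at 0.642 of the level of *C1qb* per kilobase in Cd11c-active and at 0.432 in Cd11c-lineage. *C1qa* was at 0.727 and 0.637 of *C1qb*. By this measure the chain transcripts were not at equal levels in either library, although the protein holds its chains in equal numbers.

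**Figure D4:**
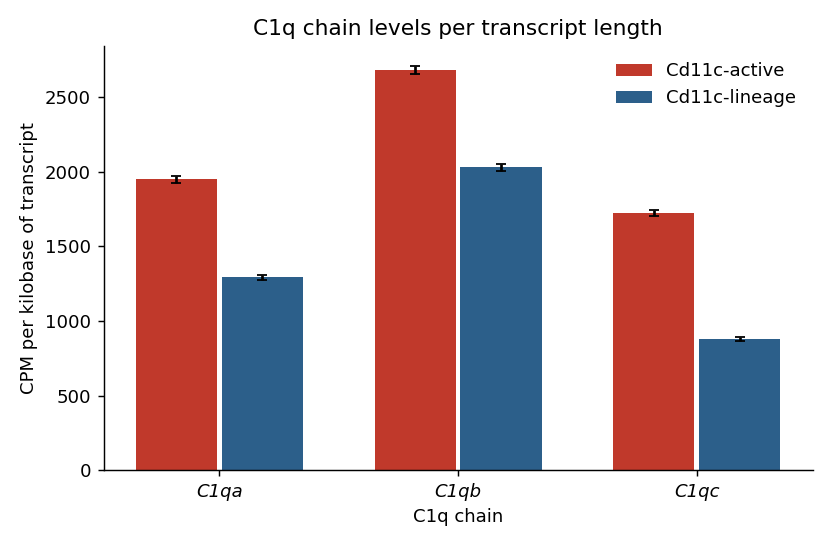
CPM per kilobase of transcript for the C1q chains (bars from 0, 1 library per bar) with exact Poisson 95% intervals for counting error. *C1qb* is the highest and *C1qc* the lowest chain in both libraries, and the gap between the libraries is widest for *C1qc*, at 1722 against 877.

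The ratio of *C1qc* to *C1qb* reads was 0.710 (95% counting interval 0.699 to 0.722) in Cd11c-active and 0.478 (0.469 to 0.487) in Cd11c-lineage, a difference of 0.57 on the log2 scale (0.53 to 0.61). *C1qc* to *C1qa* was 1.02 and 0.785, a difference of 0.38 (0.34 to 0.42), and *C1qa* to *C1qb* was 0.695 and 0.609, a difference of 0.19 (0.16 to 0.22). All 3 differences exceeded counting error. Abundant genes scatter with an SD of about 0.32, so a difference of 2 such ratios has an SD of 0.45. The difference for *C1qc* over *C1qb* was 1 to 2 such SDs and the others were under 1. After the length and GC trend was subtracted, *C1qc* over *C1qb* was 0.59, *C1qc* over *C1qa* 0.47 and *C1qa* over *C1qb* 0.13.

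The chain genes lie side by side on chromosome 4 in the RefSeq order *C1qb*, *C1qc*, *C1qa*, between the ephrin receptor genes *Ephb2* and *Epha8*. The neighbours had few reads: *Ephb2* had 87 and 239, and *Epha8* had 52 and 35. The high read counts of the chains were thus not seen in the genes next to them. Because the chains share a locus, the sequence before their starts is shown. RefSeq promoters on GRCm38.p6 (250 bases before to 50 after the start) were matched for 7 of the 9 genes, all but *C1qa* and *C4b*. The counts themselves were made on GRCm39. Each was searched on both strands for AGGAAGT, the core of sites for PU.1 (the factor that sets up the macrophage lineage) and other ETS factors, for TGCTGAC, part of the site of MAF factors, for TGACTCA, the AP-1 site, and for the IRF word, a pair of GAAA runs 2 bases apart.

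AGGAAGT was in the promoters of *C1qb*, *C1qc*, *C5ar1* (in 2 places) and *C5ar2* (in 1 of its 2 promoters), and in 9.35% of all 32851 promoters of 300 bases. The matches with 10 bases on either side, all from minus-strand genes and are written in the direction that reads AGGAAGT, so that the flanks can be compared. The capitals mark the searched word.
C1qb, chr4:136886237-136886263: tgctgccctcAGGAAGTttcaggtcct
C1qc, chr4:136893093-136893119: tgccaaaatgAGGAAGTgtctgccgtc
C5ar1, chr7:16259512-16259538: cctcttctgaAGGAAGTtttggagttt
C5ar1, chr7:16259394-16259420: tggaaaaggaAGGAAGTctctggcccc
C5ar2, chr7:16244238-16244264: tgagcaggaaAGGAAGTgggctgagag

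The middle of the word lay 50 bases before the start of *C1qb*, 192 before *C1qc*, 187 and 69 before *C5ar1* and 97 before *C5ar2*. TGACTCA was in the promoters of *C3ar1* and *C1qbp* and in 5.20% of all. TGCTGAC, in 4.67% of all, and the IRF word, in 3.44%, were in none of the members' windows. The 250 bases before the start of *C1qb*, the chain with the most reads, are shown whole, on the strand of the gene (minus strand, chr4:136886201-136886450 of GRCm38.p6), with the reverse complement of AGGAAGT in capitals.
C1qb: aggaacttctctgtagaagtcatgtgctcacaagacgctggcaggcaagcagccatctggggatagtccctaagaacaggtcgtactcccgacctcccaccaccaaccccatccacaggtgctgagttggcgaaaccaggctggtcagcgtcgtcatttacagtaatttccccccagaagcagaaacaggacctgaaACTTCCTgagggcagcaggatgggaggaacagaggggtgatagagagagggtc
These matches describe letters in the reference and say nothing of binding in these cells.

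*C3* and *C4b*, the components that C1q activation leads to, were scarce in both libraries and had fewer reads in Cd11c-active. *C3* (ENSMUSG00000024164), the central component, had 69 and 295 reads, or 5.59 and 21.0 CPM. Its log2 ratio was -1.90 (counting interval -2.31 to -1.53). *C4b* (ENSMUSG00000073418), a C4 gene, had 2 and 68 reads, or 0.162 and 4.84 CPM, and a ratio of -4.59 (-7.98 to -2.99). Per kilobase *C3* was at 1.09 and 4.09 CPM and *C4b* at 0.0301 and 0.900, against 877 or more for every C1q chain.

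At this depth such ratios were common. Both genes were past 2-fold in the lower direction, as were 21.6% of the 13037 genes with at least 20 reads. Among the 200 genes nearest to *C3* in reads, 48.0% were past 2-fold in either direction and 22 had a lower ratio than *C3*. Among the 200 nearest to *C4b*, 88.0% were past 2-fold, 142 had 0 reads in either library and 80 had a lower ratio. The border macrophage, retinal neuron, and monocyte and neutrophil marker sums were also lower in Cd11c-active, as given above, and their part in the values of *C3* and *C4b* was not tested. In bulk material, fewer cells of a type and less RNA per cell cannot be told apart. Reads of *C4b* may also have been shared with its near-identical copy *C4a*.

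The receptors for C3a and C5a were present in both libraries at similar levels. *C3ar1* (ENSMUSG00000040552), the C3a receptor, was the most abundant of them, with 5926 and 6824 reads, or 480 and 486 CPM. Its log2 ratio was -0.02 (counting interval -0.07 to 0.03). *C5ar1* (ENSMUSG00000049130), the C5a receptor, had 1412 and 1364 reads, or 114 and 97.1 CPM, and a ratio of 0.24 (0.13 to 0.34). *C5ar2* (ENSMUSG00000074361), a second C5a receptor that does not couple to G proteins, had 408 and 376 reads, or 33.0 and 26.8 CPM, and a ratio of 0.30 (0.10 to 0.51).

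None of these ratios stood apart from those of genes with like reads. The middle 95% of the 200 nearest genes ran from -0.62 to 0.81 for *C3ar1*, from -0.99 to 1.05 for *C5ar1* and from -2.13 to 2.96 for *C5ar2*. A change within those ranges could not be told from the spread between these libraries. *C3ar1* is the longest of the receptors, with a transcript of 4.30 kilobases, and its ratio was 0.14 after the length and GC trend was subtracted. Per kilobase the order was *C3ar1*, *C5ar1*, *C5ar2* in both libraries, with 111, 45.0 and 9.64 CPM in Cd11c-active and 113, 38.2 and 7.80 in Cd11c-lineage.

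*C1qbp* (ENSMUSG00000018446) encodes a protein first found by its binding to the globular heads of C1q, which resides mainly in mitochondria. Its reads numbered 626 and 567, or 50.7 and 40.4 CPM. The log2 ratio was 0.33 (counting interval 0.16 to 0.50), within the middle 95% of its 200 nearest genes (-1.44 to 2.04), and 0.05 after the trend was subtracted. Its level per kilobase, 43.2 and 34.3 CPM, was thus far below those of the C1q chains and near that of *C5ar1*.

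Over the 9 genes, 6 had a log2 ratio above 0 and 3 below, with a median of 0.30 against 0.01 over all 13037 genes with at least 20 reads. Past 2-fold were 0 upward and 2 downward, *C3* and *C4b*. Over all these genes 23.3% passed upward and 21.6% downward, 44.9% in all. Of the 6 members with at least 1000 reads (all but *C3*, *C4b* and *C5ar2*), 0 were past 2-fold, against 9.57% of the 4619 genes with as many reads.

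The rest of the complement system was read from 4 lists with 52 genes in all, of which 21 were in the table and 19 had at least 20 reads. Past 2-fold were 5 upward and 3 downward, with a median log2 ratio of 0.06, and 7 of these 8 had fewer than 200 reads. Over all genes with at least 20 reads 44.9% passed, so the share was near the background. Of the early proteases and lectin pathway recognition genes, 3 of 12 were in the table, all with a ratio above 0. *C1ra*, the C1r protease gene that acts directly after C1q, had 142 and 87 reads. *Masp1*, a protease of the lectin pathway, had 160 and 30, and *Fcna*, the lectin ficolin A, had 76 and 36. *Masp1* and *Fcna* were past 2-fold, but so were 63.5% and 81.5% of the 200 genes nearest to them in reads.

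Of the C2 to C9 and alternative pathway genes, 3 of 12 were in the table. *C2*, the protease that joins C4 in cleaving C3, had 129 and 0 reads. That is at least 48.9-fold higher with the 0 set to the floor of 3 reads, leaving out the counting error of the 129. Among the 200 genes nearest to it in reads, 97 had 0 reads in either library. *Cfb*, factor B, had 145 and 237 reads, and *Cfp*, properdin, 0 and 18. Per kilobase the C1q chains were far above these genes and the proteases: the highest level among them was the 6.13 CPM per kilobase of *Cfb* in Cd11c-lineage, against 877 for the lowest chain value.

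Regulators in the table numbered 6 of 17. *Cr1l*, which encodes the rodent C3 convertase inhibitor Crry, had 1083 and 1112 reads and a log2 ratio of 0.15, within the middle 95% of its nearest genes (-1.05 to 1.26). *Cd46*, another C3b cofactor, had 176 and 0 reads, and *Csmd2*, a relative of the complement inhibitor CSMD1, had 0 and 151. At *Cd46*, 41 of the 200 nearest genes had 0 reads in either library, and at *Csmd2* 67. The other regulators, *Csmd1*, *Cd59b* and *Susd4*, had at most 69 reads, all in either one library or the other.

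Among the other complement receptors, 9 of 11 were in the table and 8 had at least 1000 reads. The subunits of the C3 fragment receptors were *Itgam* (CD11b), with 2527 and 3268 reads and a log2 ratio of -0.18, *Itgb2* (CD18), with 4769 and 5361 reads and 0.02, and *Itgax* (CD11c), with 2409 and 1698 reads and 0.69. *Itgax* belongs to the promoter used for the sort, and 13 of its 200 nearest genes had a higher ratio. Its level was 195 CPM in Cd11c-active and still 121 CPM in Cd11c-lineage. *Calr* and *Lrp1*, calreticulin and the endocytic receptor with which it has been proposed to bind C1q, had ratios of 0.06 and -0.24. *Lair1*, an inhibitory collagen receptor that also binds the C1q stalk, had 4462 and 5430 reads and a ratio of -0.10. *Cd33*, an inhibitory sialic acid receptor, had 2976 and 5470 reads and a ratio of -0.69, at the lower limit of its nearest genes (-0.68), 4 of which were lower. After the length and GC trend was subtracted it was -0.45. *Megf10*, an engulfment receptor, had 48 and 37 reads.

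*Cd93*, once named the C1q receptor of phagocytes, was the exception. Its reads numbered 3986 and 100, or 323 and 7.12 CPM, a log2 ratio of 5.50 (counting interval 5.22 to 5.80). None of its 200 nearest genes had a ratio as high. CD93 is also a surface protein of endothelial cells, and all 8 endothelial markers were past 2-fold in the same direction, at 646 and 73.7 CPM in sum. Their part in the value of *Cd93* was not tested.

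**Figure D5:**
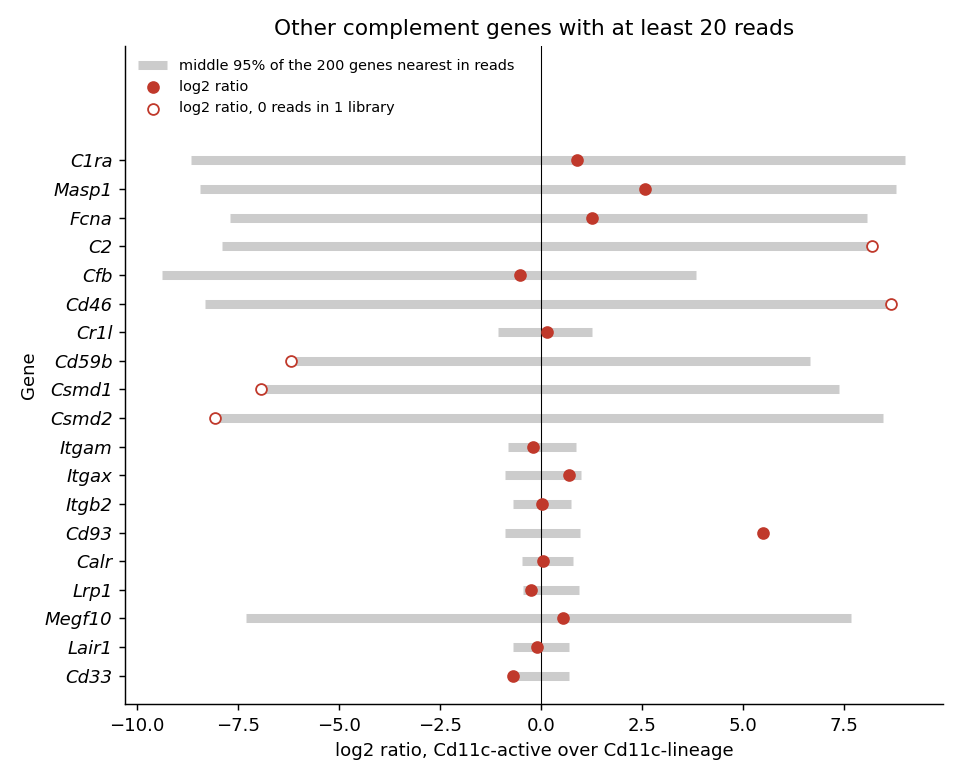
The log2 ratio (x axis) of the 19 other complement genes with at least 20 reads (y axis); open circles have 0 reads in 1 library, where the value depends on the 0.5 reads added. Grey bars span the middle 95% of the 200 genes nearest in reads, and *Cd93*, at 5.50, lies far outside its bar, while *Cd33*, at -0.69, lies at the edge of its bar.

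Of 26 genes that encode the globular C1q domain in other proteins, 8 were in the table and 7 had at least 20 reads, with a median log2 ratio of -0.12, 2 past 2-fold upward and 2 downward, against 44.9% of all genes with as many reads in either direction. *Emilin1*, an elastic fibre protein, had 2292 and 2139 reads and a ratio of 0.29. *Mmrn2*, an endothelial matrix protein that binds CD93, had 439 and 0 reads, at least 167-fold higher with the 0 set to the floor of 3 reads. Its fitted log2 ratio of 9.97 was above the middle 95% of its 200 nearest genes (-2.54 to 4.07), of which 3 had 0 reads in either library. *Emilin2* had 166 and 205 reads, *Caprin2* 46 and 89, and *C1qtnf6* 0 and 125.

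With 2 libraries, likeness of pattern can only mean a like ratio. Of the 353 genes with at least 10000 reads other than the chains, the 5 with a log2 ratio nearest to the 0.61 of the summed chains were *Rpsa* (0.61) and *Rps2* (0.62), which encode small-subunit ribosomal proteins and whose reads can be shared with pseudogenes, *Ttyh3* (0.59), a membrane channel gene, *Pld3* (0.59), a lysosomal nuclease, and *mt-Rnr2* (0.58), the mitochondrial large ribosomal RNA. The microglial receptor genes *Trem2* (7327 and 5584 reads) and *Tyrobp* (7079 and 6055 reads), which are in the marker list and were named after their values were seen, had ratios of 0.58 and 0.41. Their transcripts, of 1.09 (*Trem2*) and 0.597 (*Tyrobp*) kilobases, are in the class under 1.5 kilobases, where the median ratio was 0.37. Of the 14 microglial markers 7 were above 0 and 7 below. Among the latter were *Ptprc* (-0.57, 5.07 kilobases), *Siglech* (-0.54, 2.30) and *P2ry12* (-0.36, 2.34).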

How the data were processed

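The authors deposited raw counts, whole reads per gene, for 1 Cd11c-active and 1 Cd11c-lineage library, per the file headers, with log2 fold changes and log2 mean CPM. The submitters' processing notes name cutadapt 3.5, STAR 2.7.9a, featureCounts 1.6.3, edgeR 4.0.16 and GRCm39. The annotation, strand setting and treatment of duplicates are not given in the sources used here. The lowest gene had 6 reads over both libraries. Columns of unmapped samples numbered 0.

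Libraries were scaled with TMM (edgeR 4.0.16, R 4.3.3; factors 0.954 and 1.05). The log2 ratio used reads plus 0.5, with exact Clopper-Pearson 95% intervals. As each group has a single library, neither edgeR's quasi-likelihood test nor DESeq2 could be fitted, so no p-value is given, and genes past 2-fold with at least 20 reads were counted. A count of 0 allows up to 3 reads, which is 0.243 CPM (Cd11c-active) or 0.214 (Cd11c-lineage). Length, that of the longest coding transcript, came from GENCODE M21 (GRCm38) for 13499 genes (99.6%). The trend was quadratic in log length and GC content. Other tools were Python 3.11.15, numpy 2.4.6, scipy 1.17.1, pandas 2.3.3 and matplotlib 3.10.9. The ratio and its intervals were checked on simulated data.

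A planned complement gene is not reported here. The members, the 14 lists and the search words were chosen with earlier results of these data known. Named were all members, complement genes with at least 1000 reads and the 5 others past 2-fold with the most reads, the 5 C1q domain genes with the most reads, markers at 0 or with the most reads, and the 5 genes nearest in ratio to the summed chains; any further gene was named after its values were seen. Alternatives were other scalings, read minimums, the fold, the reads added and trend removal.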

Additional observations from a re-analysis of the deposited data

How the results depend on the processing

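No paired analysis was possible because each group has 1 library, which also leaves no replicate to leave out. Scaling to library totals gave log2 ratios of 0.46 for *C1qa*, 0.27 for *C1qb*, 0.84 for *C1qc* and 0.47 for the summed chains. After removal of the trend with length and GC content they were 0.11, -0.017, 0.57 and 0.17. With the summed microglial markers as library size, an alternative chosen after seeing the data, they were 0.54, 0.35, 0.92 and 0.55. The direction of *C1qb* thus turned under trend removal, and *C1qc* was the chain that kept a ratio above 0.5 under each of these. Inside the libraries, trend removal moved *C1qa* over *C1qb* to 0.13 and *C1qc* over *C1qa* to 0.47. Ratios near 0 turned sign: under trend removal *C3ar1* was 0.14, *Lair1* 0.15, *Itgb2* -0.085 and *Calr* -0.043, under library totals *Itgb2* was -0.12 and *Calr* -0.077, and with the marker sum *Itgb2* was -0.036. Median-of-ratios scaling, leaving out ribosomal RNA, mitochondrial and 7SK or 7SL genes, and adding 5 reads left the 19 single-gene and summed ratios inside their counting intervals. The interval of *C4b* is wide, and its ratio went from -4.59 to -3.20 with 5 reads added. With a minimum of 200 reads, 1 of 11 complement genes was past 2-fold and 1 of 3 of the C1q domain family. With the minimum of 20 reads these were 8 of 19 and 4 of 7. Of all genes, 2353 of 8951 were past 2-fold at 200 reads, against 5851 of 13037 at 20. With at least 1000 reads these counts were 1 of 9, 0 of 1 and 442 of 4619. The share of all genes past 2-fold was then 9.57% against 44.9%. Depth limits the genes with few reads, *C3* and *C4b* among the members: 21.3% of genes with at least 20 reads had 0 reads in either library.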
